A study of Bos taurus with 12 samples.

Results

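Genes used as markers of endometrial stem cells and of side population cells were followed in bovine endometrium after povidone-iodine (PVP-I) was given into the uterus. The 10 genes are ABCG2, ABCB1, SUSD2, MCAM, CD44, ENG, PDGFRB, PROM1, NT5E and THY1, and their probes were taken by the gene name printed in the scanner output. This gave 21 of the 43653 probes of the array, for 8 of 25325 gene names, and no probe carried the name ABCB1 or PROM1. The tissue came from 3 cows, each labelled a fertile cow, which all received PVP-I, an iodine-releasing antiseptic. The uterine horns of each cow were biopsied in turn on days 0, 2, 7 and 14, and the RNA of every biopsy was hybridised to its own 1-colour array, so that 12 arrays stood in 4 groups of 3. The labels give neither the age of the cows, the horn, the stage of the oestrous cycle nor whether the day 0 biopsy preceded the antiseptic. The samples used here include no untreated cow, so that a difference between days holds the antiseptic, time, the cycle and the repeated biopsy together.

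The endometrium, the lining of the uterus, is remodelled in each cycle and rebuilt after each birth, and cells with stem-like properties have been sought in it by what they pump out and by what they carry on their surface. Side population cells are defined in a cell sorter by their low staining with a DNA dye, which ABC transporters such as ABCG2 and P-glycoprotein (encoded by ABCB1) export from the cell. Mesenchymal stem-like cells of the endometrium lie around small vessels and are sorted with antibodies to SUSD2, to MCAM or to PDGFRB, while CD44, ENG, NT5E and THY1 belong to the surface panel of cultured mesenchymal stromal cells. None of these genes is expressed by stem cells alone. The arrays measured whole tissue, in which fewer cells of a type and less RNA per cell cannot be told apart, and the share of side population cells itself was not among the files.

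Signals are given on a log2 scale relative to each array's 75th percentile, so that 0 is that percentile and 1 unit is a 2-fold difference. As probes differ in how brightly they report, levels are compared between days and not between probes. The scanner software called 71.3 to 76.0% of an array's probes well above background, but 63.2% on the day 2 array of cow 3. Of the 21 probes, 19 were well above background on at least 3 of the 12 arrays and were tested with the 33539 probes that met that rule. The other 2 were NT5E probes, well above background on 0 and 1 of 12 arrays. A gene is represented by its brightest probe (probe 1), and a change passed where its adjusted p in limma, over all probes tested, was under 0.05. Day and cow of each array were taken from the columns of the deposited value table, which name another sample than the link of the scanner file for 10 of 12 arrays. Under the names of the file links, 0 of the 8 genes passed by limma against day 0, between days 2 and 7, between days 7 and 14 or in the test over all 4 days, and 0 and 1 of them had an unadjusted p under 0.05 on day 2 and on day 7 against day 0. The day assignment of every result below therefore rests on the value table. Under it each slide held the 4 days of 1 cow in the same positions, so that cow and slide, and day and position, cannot be told apart.

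CD44, ENG and MCAM rose and SUSD2 fell by day 7, CD44 rose by day 2, and no change of ABCG2 or PDGFRB passed on any day. On day 2 against day 0, 1 of 8 genes passed (CD44, higher), beside 2.52% of all probes tested (1.63% higher, 0.894% lower). On day 7, 4 of 8 passed, 3 higher and 1 lower, beside 18.2% of all probes (10.3% higher, 7.88% lower). On day 14 against day 0, 0 of 8 passed beside 0.131% of all probes, and 1 had an unadjusted p under 0.05. Day 7 against day 2 (0.486% of all probes), day 14 against day 7 (0.146%) and day 14 against day 2 (0%) also gave 0 of 8, with 1, 3 and 2 genes at an unadjusted p under 0.05. In the test over all 4 days, CD44 (adjusted p = 0.00901, limma's F-test) and SUSD2 (0.0417) passed, beside 7.78% of probes. The median log2 change of the 8 genes was 0.5 on day 2, 0.63 on day 7 and 0.27 on day 14 against day 0, while the median over all probes was 0, 0.04 and 0.05.

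**Figure D1:**
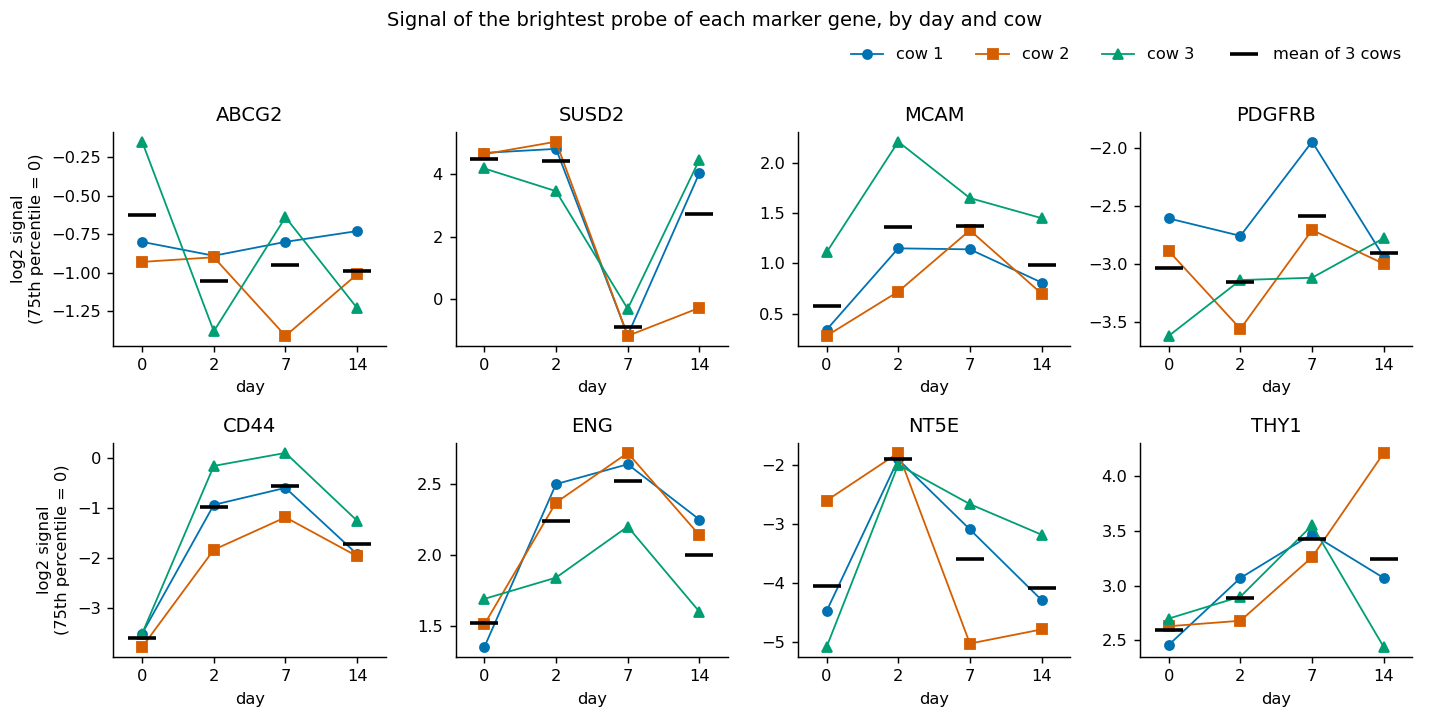
Log2 signal of the brightest probe of each of the 8 genes (vertical axes, each with its own range, 0 being the array's 75th percentile) on days 0, 2, 7 and 14, with 1 line per cow and a bar at the mean of 3 cows. CD44 lay between -3.79 and -3.52 on day 0 and between -1.19 and 0.10 on day 7, and SUSD2 between 4.19 and 4.69 on day 0 and between -1.19 and -0.32 on day 7.

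ABCG2, the dye exporter by which side population cells are recognised, showed no change that passed. Its probes each lie across an exon junction on the genome, since the 60 bases of each probe span 4889 and 7295 bases of chromosome, and they have no stretch of more than 4 bases in common, so that they report separate parts of the transcript. They are shown because the side population is defined through this gene, in lower case, with positions in the build named in the file headers (HGSC Btau_3.1), chr6:37405951-37410839 and chr6:37376973-37384267, plus strand:
ABCG2 probe 1: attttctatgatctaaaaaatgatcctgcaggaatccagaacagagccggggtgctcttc
ABCG2 probe 2: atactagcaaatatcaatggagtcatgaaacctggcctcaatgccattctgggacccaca

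Probe 1 had a log2 signal of -0.80, -0.93 and -0.15 in cows 1, 2 and 3 on day 0 and of -0.89, -0.90 and -1.38 on day 2. On day 7 it had -0.80, -1.41 and -0.64, and on day 14 -0.73, -1.01 and -1.23. The groups overlap in every pair of days, and cow 3 had the highest signal on day 0 and the lowest on days 2 and 14. The changes against day 0 were -0.43 ± 0.28 (SE, n = 3 cows; 95% interval -1.07 to 0.21; adjusted p = 0.417, limma) on day 2, -0.32 (-0.97 to 0.32) on day 7 and -0.37 (-1.01 to 0.28) on day 14. For probe 2 they were -0.14 (-0.71 to 0.42), -0.05 (-0.62 to 0.52) and 0.06 (-0.51 to 0.63). The lowest and highest bounds of these 6 intervals were -1.07 and 0.63.

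Of 17 other drug and lipid exporters of the ABC family listed, 10 were measured (the P-glycoprotein probes are not among them), and on day 7 against day 0 none rose and 4 fell (9.73 and 8.77% of all genes rose and fell). ABCG4, a close relative of ABCG1, had a log2 change of -1.45 ± 0.20 (adjusted p = 0.00458, limma), and ABCG1, which exports cholesterol to lipoproteins, -1.5 ± 0.40 (0.0373). ABCA1, which loads cholesterol onto apolipoproteins, had -1.29 ± 0.27 (0.0165), and ABCC3, an exporter of conjugated organic anions, -1.48 ± 0.38 (0.0314). On day 2, ABCA1 (-2.09) and ABCG4 (-1.03) fell, with 2 of 10 lower and 0 higher beside 1.07 and 1.68% of all genes. The day 2 mean of ABCA1 was -6.14, while the lowest signals called well above background on the day 2 arrays were -6.672 to -5.319. The size of the ABCA1 fall on day 2 is therefore uncertain. The median change of the 10 was -1.16 on day 7, against 0.01 over all genes. None of the 10 passed on day 14 (0.0468% of all genes in either direction). Of the 41 changes of list genes that are named here and below, 0 passed by limma without cow 1, without cow 2 or with the sample names of the file links, and 26 passed without the cow as a block.

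ABCB1 had no probe of its name, but 3 probes on chromosome 4 were described in the scanner files as a P-glycoprotein fragment. They were found by that description after the files had been opened, and whether they match ABCB1 or its neighbour ABCB4 was not settled here. The brightest lies at chr4:33763980-33771843, minus strand, and is shown because its signal moved where ABCG2 did not pass:
P-glycoprotein probe 1: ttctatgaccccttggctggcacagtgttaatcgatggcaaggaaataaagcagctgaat

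P-glycoprotein probe 1 had a log2 signal of -1.79, -1.44 and -0.82 (day 0), -1.04, -0.98 and -1.89 (day 2), -0.39, 0.01 and -0.37 (day 7) and -0.82, -0.79 and -1.15 (day 14). Day 7 was the highest day in each cow and did not overlap with day 0. It rose by 1.1 ± 0.31 on day 7 against day 0 (2.14-fold; adjusted p = 0.0447, limma), higher in 3 of 3 cows. The other P-glycoprotein probes had 0.63 ± 0.27 (adjusted p = 0.139) and 1.19 ± 0.37 (0.0576). The call of P-glycoprotein probe 1 was lost without cow 1 (0.94, adjusted p = 0.271) or cow 2 (0.92, 0.294), without the filter on dim probes (0.062) and with the arrays of days 0 and 7 alone (0.0921). That ABCG2 and P-glycoprotein differ in their change was not tested.

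**Figure D2:**
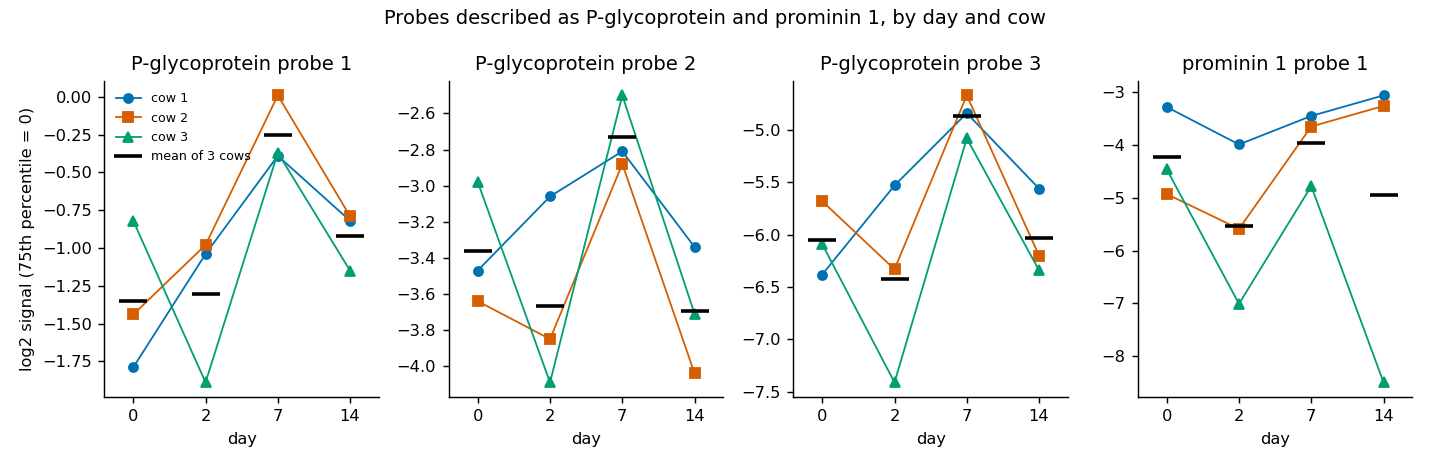
Log2 signal (vertical axes, each with its own range) by day and cow of the 3 probes described as P-glycoprotein and of the probe described as prominin 1, with a bar at the mean of 3 cows. P-glycoprotein probe 1 lay between -0.39 and 0.01 on day 7 and between -1.79 and -0.82 on day 0.

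PROM1, which encodes a cholesterol-binding protein of cell protrusions used as a stem cell marker (CD133), was likewise found only by description. Its single probe, described as prominin 1 and chosen after the files had been opened, had a log2 signal between -7.01 and -3.06 on 11 arrays and -8.50 on the day 14 array of cow 3. It was well above background on 10 of 12 arrays. No change passed, and the change of the prominin 1 probe on day 7 against day 0 was 0.26 ± 0.92 (adjusted p = 0.866, limma), an interval of -1.85 to 2.38.

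SUSD2, a membrane glycoprotein whose antibody W5C5 is used to sort perivascular mesenchymal cells from the human endometrium, gave the largest change of the 8 genes. Its probes 1 and 2 share 49 of their 60 bases and are therefore 1 measurement made in duplicate, while probe 3 lies upstream of both and is a separate one. The first 30 of the shared bases, within chr17:74662819-74662878, and all of probe 3, chr17:74661294-74661353 (plus strand), are shown because the change passed at the first place and not at the other, with intervals that overlap on day 7 (-7.80 to -3.01 for probe 1 and -4.28 to -0.54 for probe 3):
SUSD2 probes 1 and 2: gtcttacggaacgtctcctgacagactcct
SUSD2 probe 3: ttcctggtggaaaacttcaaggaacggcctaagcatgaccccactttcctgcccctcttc

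SUSD2 probe 1 had a log2 signal of 4.69, 4.65 and 4.19 on day 0 and of 4.82, 5.05 and 3.46 on day 2. On day 7 the signal was -1.17, -1.19 and -0.32, and on day 14 it was 4.04, -0.29 and 4.47. Days 0 and 2 overlapped, day 7 was far below both, and on day 14 cows 1 and 3 lay near their day 0 level while cow 2 did not. The change on day 7 against day 0 was -5.41 ± 1.04 (a 42.4-fold fall; 95% interval -7.80 to -3.01; adjusted p = 0.0136, limma), lower in 3 of 3 cows. SUSD2 probe 2 fell by 5.62 ± 1.05 (adjusted p = 0.0123), and probe 3 had a change of -2.41 ± 0.82 that missed the threshold (adjusted p = 0.0749), with all 3 cows lower and no overlap. On day 7 all 3 SUSD2 probes were still well above background on every array, so that these are measured falls and not bounds. The calls of SUSD2 probes 1 and 2 were lost without cow 1 (-5.18, adjusted p = 0.163; -5.41, 0.158).

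The later course of SUSD2 differed between cows. On day 14 against day 0, cow 1 had a difference of -0.65, cow 2 of -4.94 and cow 3 of 0.28 on probe 1, and the mean change of -1.77 ± 1.04 did not pass (adjusted p = 0.368, limma). SUSD2 probe 3 showed the same order, with -0.91, -3.40 and 1.37. Without cow 2 the change of SUSD2 probe 1 was -0.18 (adjusted p = 0.912). On day 14 against day 7, probe 1 had 5.21, 0.90 and 4.79 in cows 1, 2 and 3, a mean of 3.64 ± 1.04 (adjusted p = 0.145) with 3 of 3 cows higher and no overlap. This day 14 against day 7 difference passed only with array weights, which count arrays with more scatter for less (4.78, adjusted p = 0.00438). Day 7 against day 2 gave -5.34 ± 1.04 (adjusted p = 0.0665), which passed with array weights (0.00155) and without cow 3 (-6.12, 0.0495).

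**Figure D3:**
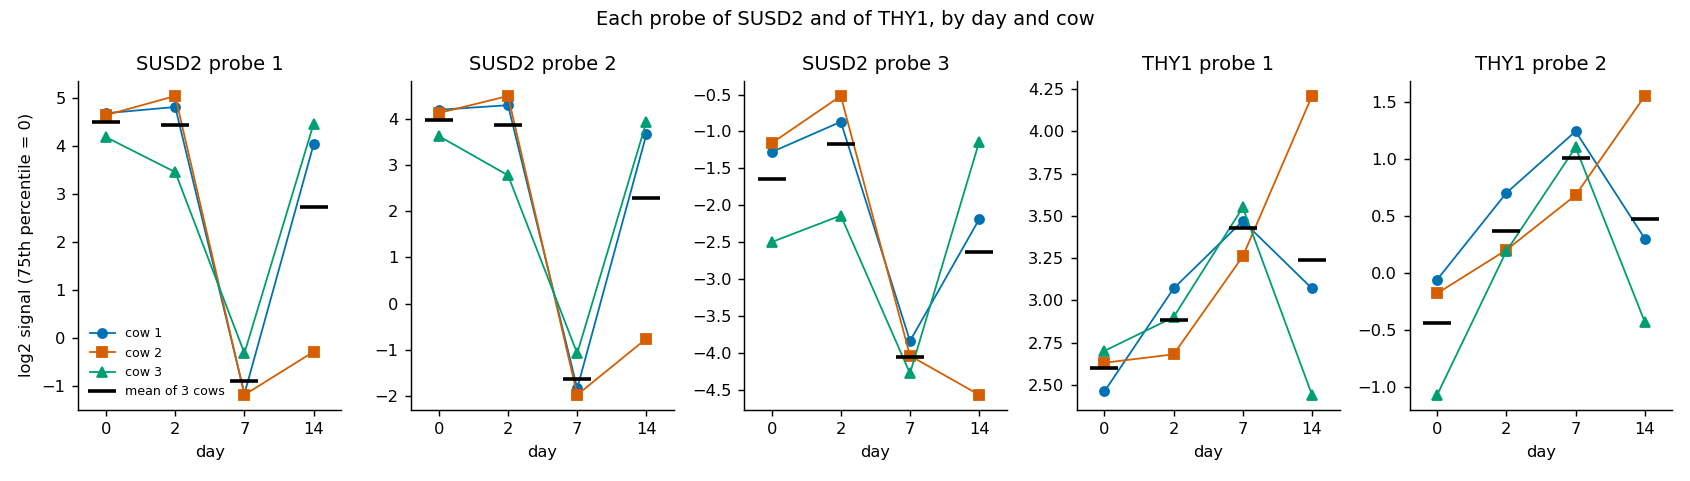
Log2 signal (vertical axes, each with its own range) of the 3 SUSD2 probes and both THY1 probes by day and cow, with a bar at the mean of 3 cows. All 3 SUSD2 probes were lowest in cows 1 and 3 on day 7, and cow 2 stayed low on day 14, when the same cow had the highest THY1 signal (4.21 on probe 1).

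MCAM (CD146), an adhesion molecule of endothelial cells and pericytes that is sorted together with PDGFRB, rose on day 7. Probe 1 had a log2 signal of 0.34, 0.28 and 1.11 (day 0), 1.15, 0.72 and 2.21 (day 2), 1.14, 1.33 and 1.65 (day 7) and 0.81, 0.70 and 1.45 (day 14). Cow 3 was the highest cow on each day, and within each cow day 0 was the lowest day. The change of MCAM probe 1 was 0.80 ± 0.21 on day 7 (1.74-fold; adjusted p = 0.0332, limma) and 0.78 ± 0.21 on day 2 (adjusted p = 0.0856). MCAM probe 2, which has no more than 5 consecutive bases in common with probe 1, had larger changes, 1.45 ± 0.18 on day 2 (2.73-fold; adjusted p = 0.0124) and 1.31 ± 0.18 on day 7 (0.00448). On day 14 it was still 1.15 ± 0.18 above day 0 without overlap, at an adjusted p of 0.0544. Both lie on chromosome 15, probe 1 at chr15:28409497-28409530 (a shorter interval than the probe itself, as the files give it) and probe 2 at chr15:28409598-28409657, minus strand.

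The MCAM calls depended on how the cow entered the fit. Without the cow as a block, MCAM probe 1 on day 7 had an adjusted p of 0.193 (limma), and probe 2 had 0.0858 on day 2 and 0.0402 on day 7. Without cow 1 no MCAM change passed (probe 1 on day 7 0.79, adjusted p = 0.268; probe 2 on day 7 1.22, 0.117, and on day 2 1.26, 0.312), nor did any without cow 2 (0.67, 0.187; 1.29, 0.0789; 1.63, 0.209). The MCAM probe 1 call was also lost without the filter (0.0513) and with the arrays of days 0 and 7 alone (0.0931), and the day 2 call of MCAM probe 2 with those of days 0 and 2 alone (0.0591).

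PDGFRB, the receptor for platelet-derived growth factor B and the usual partner of MCAM in sorting perivascular cells, had no change that passed on any of its 3 probes. Probe 1, at chr7:60943954-60944013 (minus strand), had a log2 signal of -2.61, -2.89 and -3.62 (day 0), -2.76, -3.56 and -3.14 (day 2), -1.95, -2.71 and -3.12 (day 7) and -2.94, -3.00 and -2.78 (day 14). The groups overlap in all 6 pairs of days. The PDGFRB change on day 7 was 0.45 ± 0.28 (95% interval -0.19 to 1.09; adjusted p = 0.287, limma), and the other probes had 0.51 ± 0.26 and 0.51 ± 0.32. MCAM and PDGFRB thus gave different calls on day 7, but their intervals overlap (0.33 to 1.27 for MCAM probe 1), and the difference was not tested. Of 6 other PDGF ligands and receptors, 5 were measured. On day 2, 1 of the 5 rose and 0 fell, beside 1.68 and 1.07% of all genes. On day 7, 1 rose and 1 fell, beside 9.73 and 8.77%. PDGFRL, a receptor-like protein without a kinase, rose on day 2 (2.58 ± 0.28, adjusted p = 0.0116) and day 7 (1.65 ± 0.28, 0.00943), while PDGFD, a ligand of PDGFRB, fell on day 7 (-1.38 ± 0.35, 0.031).

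CD44, a receptor for hyaluronan found on stromal cells, leukocytes and many epithelia, had the clearest rise. It has a single probe, which crosses an exon junction at chr15:65442578-65451090 (plus strand) and is printed because this call rests on it alone:
CD44 probe: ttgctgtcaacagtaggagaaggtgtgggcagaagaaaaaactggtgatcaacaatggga

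CD44 had a log2 signal of -3.52, -3.79 and -3.52 (day 0), -0.94, -1.84 and -0.16 (day 2), -0.60, -1.19 and 0.10 (day 7) and -1.93, -1.97 and -1.26 (day 14). The day 0 arrays lay close together and below all others, and in each cow the order was day 0, day 14, day 2, day 7 from low to high. CD44 rose by 2.63 ± 0.26 on day 2 (6.19-fold; 95% interval 2.04 to 3.22; adjusted p = 0.0116, limma) and by 3.04 ± 0.26 on day 7 (8.25-fold; 2.45 to 3.64; 0.00175), in 3 of 3 cows each. On day 14 the difference from day 0 was 1.89 ± 0.26 (3.71-fold), with no overlap, but at an adjusted p of 0.0504 it missed the threshold. It passed after quantile normalization (0.0438), with normexp background correction together with quantile normalization (0.0274), with only probes above background on all 12 arrays (0.0316), with array weights (0.0489) and without the day 2 array of cow 3 (0.0479). Day 14 against day 7 (-1.15, adjusted p = 0.0909), day 7 against day 2 and day 14 against day 2 did not pass. The day 2 call of CD44 was lost without cow 1 (2.66, adjusted p = 0.266) or cow 2 (2.97, 0.2) and with the arrays of days 0 and 2 alone (0.0542), and the day 7 call without cow 1 (3.11, 0.0779).

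Of 17 listed genes that make, break or bind hyaluronan or partner CD44, 15 were measured. On day 2, 2 of them rose and 0 fell, beside 1.68 and 1.07% of all genes. On day 7, 4 rose and 1 fell, beside 9.73 and 8.77%. MSN, which links CD44 to the actin cytoskeleton, rose on day 2 (1.23 ± 0.22, adjusted p = 0.0346, limma) and day 7 (1.79 ± 0.22, 0.00375). SPP1 (osteopontin), a secreted ligand of CD44, rose on day 2 (5.21 ± 1.05, 0.0445) and had a change of 0.86 on day 7 that did not pass (0.594). LYVE1, the hyaluronan receptor of lymphatic vessels and some macrophages, rose on day 7 (1.72 ± 0.35, 0.0153), and HYAL1, a lysosomal hyaluronidase, fell (-1.10 ± 0.20, 0.0117). The median change of the 15 was 0.43 on day 7, against 0.01 over all genes.

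ENG (endoglin, CD105), a co-receptor for TGF-beta and BMP9 that is most abundant on endothelial cells, rose on day 7. Probe 1, at chr11:102079964-102080023 (minus strand), had a log2 signal of 1.35, 1.51 and 1.69 (day 0), 2.50, 2.37 and 1.84 (day 2), 2.64, 2.72 and 2.20 (day 7) and 2.25, 2.14 and 1.60 (day 14). Day 0 did not overlap with day 2 or day 7, and cow 3 rose least and was back at its day 0 level by day 14. The ENG probe 1 change was 1.01 ± 0.21 on day 7 (2.01-fold; 95% interval 0.53 to 1.48; adjusted p = 0.017, limma) and 0.72 ± 0.21 on day 2 (0.11). The call on day 7 was lost without cow 1 (0.87, adjusted p = 0.204) or cow 2 (0.90, 0.191) and with the arrays of days 0 and 7 alone (0.0842).

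The other ENG probes lie further upstream on the transcript. Probes 2 and 3 overlap by 45 bases, which are in capitals, and are shown because the same bases gave a call on 1 probe and not on the other. They lie at chr11:102080956-102082019 and chr11:102081975-102083090 (minus strand), across exon junctions:
ENG probe 2: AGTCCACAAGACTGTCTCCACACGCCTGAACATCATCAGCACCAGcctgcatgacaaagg
ENG probe 3: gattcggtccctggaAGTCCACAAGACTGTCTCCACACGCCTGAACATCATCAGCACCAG

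ENG probe 2 rose by 1.01 ± 0.17 on day 2 (adjusted p = 0.0304, limma) and by 1.11 ± 0.17 on day 7 (0.00713), and ENG probe 3 had 0.82 ± 0.26 (0.137) and 0.83 ± 0.26 (0.0623). Their 95% intervals on day 7, 0.71 to 1.5 and 0.23 to 1.44, overlap. ENG probe 4, a dim probe of another place in the gene, rose by 0.83 ± 0.22 on day 7 (0.0342). All 4 ENG probes were higher in 3 of 3 cows on day 7. The calls of ENG probe 2 were lost without cow 1 (0.88 on day 2, adjusted p = 0.427; 1.01 on day 7, 0.16), without cow 2 (0.97, 0.3; 1.24, 0.0863) and, on day 2, without the cow as a block (0.0991), and both were lost with the arrays of the compared days alone (0.0749 and 0.0565). The call of ENG probe 4 was lost without any 1 of the 3 cows (0.80 to 0.87, adjusted p 0.0719 to 0.196), without the cow as a block (0.0758), without the filter (0.052), with normexp background correction together with quantile normalization (0.22, 0.164) and with the arrays of days 0 and 7 alone (0.0746). Of 18 listed genes of the TGF-beta receptor pathway 17 were measured, and on day 7 2 rose and 0 fell, beside 9.73 and 8.77% of all genes, so that the share that rose is near that of all genes. The 2 were TGFB1, the ligand (0.99 ± 0.22, adjusted p = 0.0215), and TGFBR1, its signalling receptor (1.05 ± 0.21, 0.0158).

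NT5E (CD73), the surface enzyme that makes adenosine from AMP, had its highest signals on day 2 but no change that passed. Probe 1, at chr9:65762550-65762609 (minus strand), had a log2 signal of -4.48, -2.60 and -5.09 (day 0), -1.90, -1.79 and -1.99 (day 2), -3.09, -5.03 and -2.66 (day 7) and -4.29, -4.79 and -3.18 (day 14). The day 2 arrays, between -1.99 and -1.79, lay close together and above all others, while the cows differed by more than 2 units on days 0 and 7. The NT5E change on day 2 was 2.16 ± 0.80 (95% interval 0.34 to 3.99; adjusted p = 0.177, limma), higher in 3 of 3 cows, and on day 7 it was 0.46 ± 0.80, with cow 2 lower by 2.44 and cow 3 higher by 2.44. NT5E probe 2 had 2.12 ± 0.78 on day 2 (adjusted p = 0.177), again without overlap. Of 16 listed genes that make, break or sense extracellular nucleotides and adenosine, 15 were measured, and 0 passed on day 2, where the median change was 0.34. On day 7, 4 rose and 3 fell, beside 9.73 and 8.77% of all genes, and the median change was -0.18. ENTPD1 (CD39), which supplies NT5E with AMP, rose on day 7 (1.13 ± 0.19, adjusted p = 0.00946), as did ENTPD5 (1.51 ± 0.27, 0.0111) and DPP4, which anchors adenosine deaminase (3.09 ± 0.50, 0.00796). ENPP3, a nucleotide-cleaving enzyme of the cell surface, fell (-5.02 ± 0.68, 0.00456).

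THY1 (CD90), a lipid-anchored surface protein of fibroblasts, gave a call on 1 of its 2 probes. Probe 1, at chr15:28523783-28523842 (minus strand), had a log2 signal of 2.46, 2.63 and 2.70 (day 0), 3.07, 2.68 and 2.90 (day 2), 3.47, 3.26 and 3.55 (day 7) and 3.07, 4.21 and 2.44 (day 14). The day 7 arrays lay above all those of days 0 and 2, and day 14 ran from the lowest to the highest value of all 12 arrays. The THY1 probe 1 change on day 7 was 0.83 ± 0.38 (adjusted p = 0.154, limma), and that of THY1 probe 2 was 1.44 ± 0.41 (2.72-fold; 0.0458). The call of THY1 probe 2 was lost without any 1 of the 3 cows (1.08 to 1.74, adjusted p 0.0683 to 0.245), without the day 2 array of cow 3 (0.0533), without the filter (0.0617), without the cow as a block (0.0624), with normexp background correction together with quantile normalization (0.0543) and with the arrays of days 0 and 7 alone (0.0703). In cow 2, the day 14 array that had the highest THY1 signal had the lowest SUSD2 signal of that day.

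**Figure D4:**
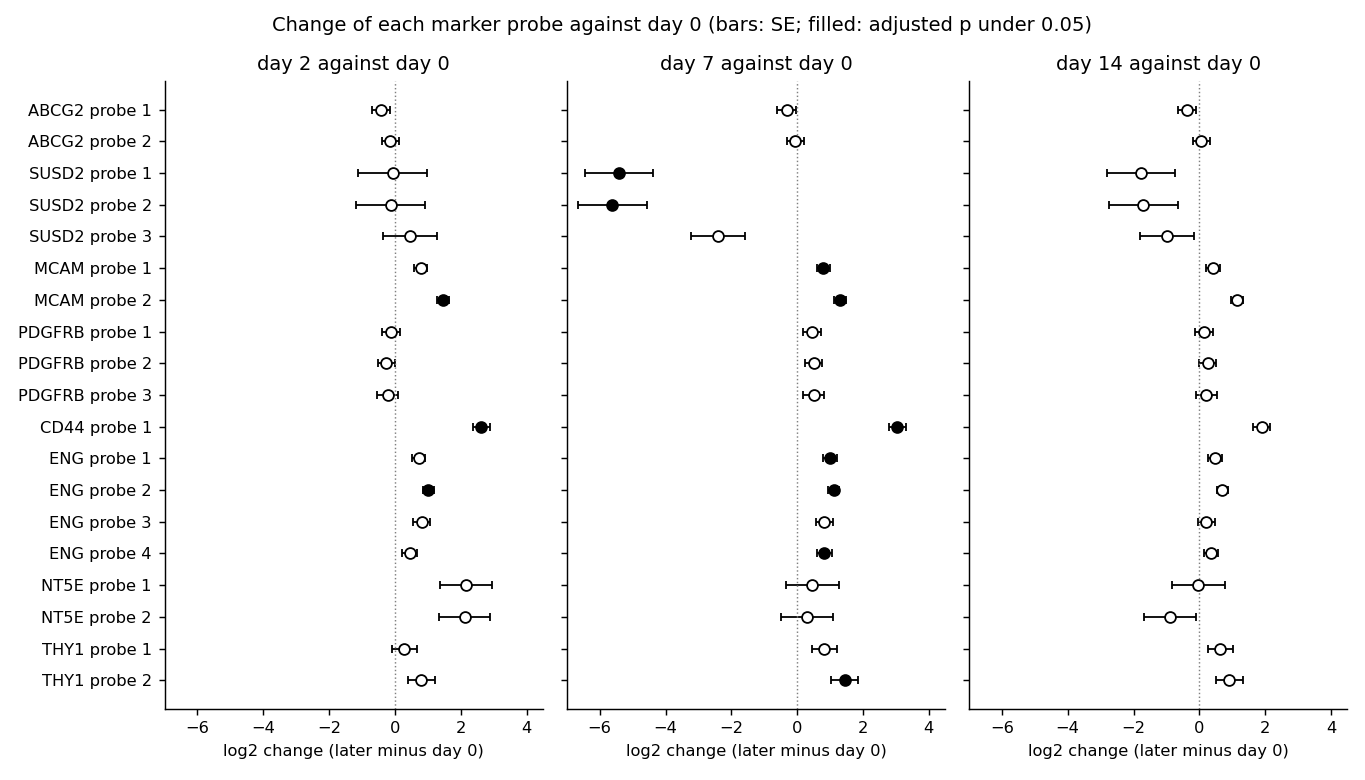
Log2 change against day 0 (horizontal axes) of the 19 tested probes on days 2, 7 and 14, with bars for 1 standard error and filled circles where the adjusted p was under 0.05. On day 2, 3 probes passed (CD44, ENG probe 2, MCAM probe 2), on day 7, 9 passed (7 higher, 2 lower), and on day 14, 0 passed. Of all probes tested, 2.52, 18.2 and 0.131% passed on these days.

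Counted over probes, 3 of 19 passed on day 2 and 9 of 19 on day 7, beside 2.52 and 18.2% of all probes tested. Those of day 7 included both MCAM probes, 3 of 4 ENG probes and 2 of 3 SUSD2 probes. Some probes share bases or a gene, so these are not independent counts. The groups did not overlap on day 7 for 12 of 19 probes, beside 37.9% of all probes, and on day 2 for 7 of 19, beside 24.4%.

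The other genes of the stromal cell panel that passed on day 7 all rose. Of the epithelial progenitor genes, 1 passed on day 2 and 1 on day 7. Of 17 further surface and transcription factor genes of mesenchymal stromal cells, all 17 were measured, and 0 passed on day 2 (median change 0.22), when 1.68 and 1.07% of all genes rose and fell. On day 7, 6 rose and 0 fell (median 0.77), beside 9.73 and 8.77% of all genes. NGFR, of the same panel, had a change of -1.8 ± 0.55 on day 7 that did not pass (adjusted p = 0.0542, limma). The 6 that rose included SNAI2, a transcription factor of mesenchymal cells (2.20 ± 0.50, adjusted p = 0.0218, limma), and the collagen-binding integrin ITGA1 (1.51 ± 0.35, 0.0232). The filament gene NES (1.27 ± 0.31, 0.0274) and the leukocyte adhesion molecule ICAM1 (0.66 ± 0.19, 0.0498) were also among them. Of 23 epithelial progenitor and pluripotency genes, 16 were measured. On day 2, 0 of them rose and 1 fell, beside 1.68 and 1.07% of all genes. On day 7, 1 rose and 0 fell, beside 9.73 and 8.77%. LGR5, a Wnt-pathway receptor of epithelial stem cells, fell on day 2 (-1.89 ± 0.33, adjusted p = 0.0328, limma). Its day 2 mean of -6.81 lay below the lowest signal called well above background on the day 2 arrays (-6.672). The size of the LGR5 fall is therefore uncertain. FUT4, the enzyme of the SSEA-1 epitope, rose on day 7 (1.22 ± 0.28, 0.0239).

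Some leukocyte markers rose on days 2 and 7, and some markers of pericytes and smooth muscle rose on day 7. Leukocyte markers (13 measured of 15) had a mean log2 signal of -2.40 to -2.15 (day 0), -1.33 to -1.10 (day 2), -2.22 to -0.61 (day 7) and -2.00 to -1.68 (day 14). On day 7, 6 of the 13 rose and 0 fell, beside 9.73 and 8.77% of all genes, and on day 2, 3 rose and 0 fell, beside 1.68 and 1.07%. The 6 included PTPRC (CD45; 1.56 ± 0.22, adjusted p = 0.00493, limma), the macrophage gene CD68 (1.43 ± 0.36, 0.0318) and ITGB2 (1.72 ± 0.36, 0.018). The 3 that rose on day 2 were these same genes, by 1.36 (adjusted p = 0.0253), 2.45 (0.0206) and 1.99 (0.0355). Pericyte and smooth muscle markers (13 of 14 measured) had a mean of 0.83 to 1.41 (day 0), 0.88 to 3.14 (day 2), 1.85 to 2.53 (day 7) and 0.99 to 2.63 (day 14). On day 2, 1 rose and 1 fell. On day 7, 5 of them rose, including the contractile genes TAGLN (3.14 ± 0.62, 0.0143) and ACTG2 (2.87 ± 0.50, 0.0101), and 2 fell, the pericyte channel genes KCNJ8 (-1.22 ± 0.28, 0.0235) and ABCC9 (-1.18 ± 0.30, 0.0319). ACTG2 (2.73, 0.0359) had risen and KCNJ8 (-1.62, 0.0313) had fallen by day 2.

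For the other cell types, 1.68 and 1.07% of all genes rose and fell on day 2, and 9.73 and 8.77% on day 7. Whether these lists differ from those shares was not tested. Of 13 endothelial markers measured of 14, PECAM1 rose on day 2 (1.13 ± 0.23, adjusted p = 0.0471, limma) and day 7 (1.18 ± 0.23, 0.0143) and VWF on day 7 (2.04 ± 0.45, 0.0203), while the mean of the list lay between -0.53 and 0.07 on every array. None of 10 stromal fibroblast markers passed (list mean 3.63 to 3.74 on day 0 and 3.95 to 3.99 on day 7), nor did any of 12 epithelial markers (0.63 to 1.22 and 0.32 to 1.35) or of 5 nerve markers. The markers of epithelium, of stroma and of pericytes that were measured were well above background on all 12 arrays, so that the defining markers of the labelled tissue were present. CD44 is also a leukocyte gene, ENG an endothelial gene, and MCAM a gene of both vessel cell types, and the part of these cell types in the changes of CD44, ENG and MCAM was not tested. The highest MCAM signal of all 12 arrays (2.21, day 2 of cow 3) lay on the array with the highest pericyte and smooth muscle mean (3.14), the lowest epithelial mean (-0.10) and the fewest probes above background. The endothelial mean of that array was low (-0.45, in a range of -0.53 to 0.07). The highest ENG signal (2.72, day 7 of cow 2) lay at an endothelial mean of 0.07, the top of that range. The highest CD44 signal (0.10, day 7 of cow 3) lay at a leukocyte mean of -2.22, within the day 0 range of -2.40 to -2.15. The highest THY1 signal (day 14 of cow 2) lay on the array with the highest stromal mean (4.40).

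**Figure D5:**
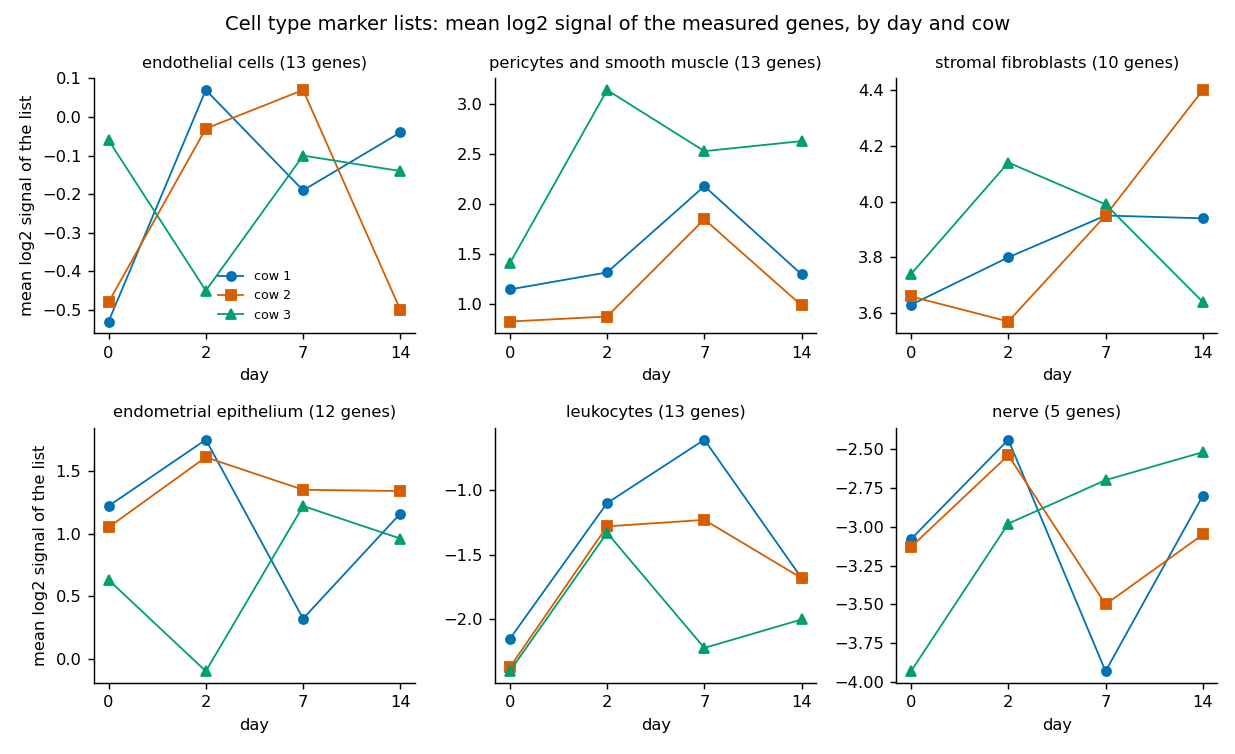
Mean log2 signal of the measured genes of 6 cell type marker lists (vertical axes, each with its own range) by day, with 1 line per cow. The leukocyte mean was higher on day 2 (-1.33 to -1.10) than on day 0 (-2.40 to -2.15) in all 3 cows, and the stromal fibroblast mean lay between 3.57 and 4.40 on all arrays.

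The genes whose signals ran most like each marker over the 12 arrays, after the mean of each cow was removed, are given as a description. They share arrays, cows and scaling with the markers and carry no test. For SUSD2 they were DCXR and EPHX2, a carbonyl reductase and an epoxide hydrolase (Pearson r = 0.987 for both), whose mean signal on days 0, 2, 7 and 14 was 1.98, 2.09, 0.51 and 1.44 for DCXR and 4.37, 4.42, 1.75 and 3.21 for EPHX2. For CD44 they were MOB1B (0.979) and the membrane protein gene EMP3 (0.977), whose mean signal was -1.56 on day 0 and 1.27 on day 7. For ENG they were PSMD1 (0.965), a proteasome subunit, and CLIC2 (0.963), and for MCAM ARPC5 (0.968), a subunit of the actin-branching complex, and BTBD10 (0.962). THY1 ran with HAPLN1 (0.963), which links hyaluronan to proteoglycans, and with the heparan sulfate proteoglycan SDC2 (0.96). PDGFRB ran with MITF (0.948) and CSNK1G1 (0.893), NT5E with CDC23 (0.916) and ST3GAL1 (0.909), and ABCG2 with SLC38A4 (0.907) and MAN2A2 (0.898). The mean signal of HAPLN1 on day 0 was -7.73, below the lowest signal called well above background on the day 0 arrays (-6.769). For SLC38A4 the day 2 mean was -6.87, below the lowest such signal of day 2 (-6.672). The correlations of HAPLN1 and SLC38A4 therefore rest in part on signals near background.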

How the data were processed

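Total RNA of 12 endometrial biopsies was labelled with Cy3 and hybridised to 1-colour Agilent arrays. The deposited intensity values had been background-subtracted and detrended within each array by Agilent's Feature Extraction software. Its version is 11.5.1.1 in the file headers but 10.5.1.1 in the notes on processing that the submitters gave. The authors also deposited a log2 value table, and the steps that made it are not given in the sources used here. Each of its columns, matched 1 scanner file once the scanner values were centred on each probe's median (r = 1.0, next best at most 0.5189; median absolute difference at most 0.00311), which showed its scale and centring. Column medians lay between -0.074 and 0.078, and the table's names gave each array's day and cow.

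The processed intensity was put on a log2 scale, the 75th percentile of its array (825.2 to 1118.8 intensity units) was subtracted, and the result was tested in limma 3.58.1 (R 4.3.3). Control spots (1417) and 31 probes with outlier flags were left out, and a probe had to be well above background on at least 3 arrays. The fit held all 12 arrays, day, and cow as a block, with 6 residual and 2.33 prior degrees of freedom, and Benjamini-Hochberg adjustment over 33539 probes. The block follows from the study's statement that the same animals were biopsied on each day. Deviations from the day means correlated at 0.285 on average over 18 same-cow pairs (lowest 0.0235). On data simulated for day 7 against day 0, 70% of log2 changes of 2 and 92% of changes of 4 were recovered, with 9 false calls among 33539 probes. The simulation changed far fewer probes than passed on day 7 and gave each probe independent noise. Its recovery and false calls therefore need not hold for the real arrays.

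Every probe of the 10 genes is reported. The brightest probe represents a gene, up to 4 genes of each list are named by the smallest F-test p, and the 2 genes most like each marker by correlation. The genes, lists and tests were chosen with earlier results of these data known. List genes were named through a RefSeq table of assembly ARS-UCD2.0, used for names only. Gene models of the array's build were not used here, so exons and untranslated regions are not annotated. Precision is limited by 3 cows per day. With cow as a block, p-values cover how far the cows differed in their changes between days. Differences in level between cows are taken out by the block. The alternatives were other background correction, scaling, filters, value source, block, array weights and sample names, and leaving out cows or an array.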

Additional observations from a re-analysis of the deposited data

How the results depend on the processing

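Of the 13 alternatives, the deposited value table changed no call of the 8 genes, and the sample names of the file links and leaving out cow 1 each removed all of them. The number of genes called on day 2 against day 0 (1 as reported) was 0 with the compared days alone, 2 with array weights and 0 with the file links. On day 7 against day 0 (4) it was 2 with the compared days alone and 0 with the file links. On day 14 against day 0 (0) it was 1 with normexp (together with quantile normalization), with quantile normalization, with probes above background on all 12 arrays, with array weights and without the day 2 array of cow 3, and this gene was CD44. Day 7 against day 2 (0) gave 3 and day 14 against day 7 (0) gave 5 with array weights. The F-test (2) gave 1 without the filter, 5 with array weights and 0 with the file links. Leaving out arrays gave 0 to 2 genes on day 2, 0 to 4 on day 7, 0 to 1 on day 14, 0 to 1 for day 7 against day 2 and 0 to 2 by the F-test. Some of these fits held fewer arrays, and the cause of the differences was not tested.

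The fit without the cow as a block (no replicate block) called 1 and 3 of the 8 genes on days 2 and 7, and of 12 probe calls on these days it lost those of MCAM probe 1 and ENG probe 4 and THY1 probe 2 on day 7, and of ENG probe 2 and MCAM probe 2 on day 2. Over all probes, 846 calls on day 2 became 427, and 6098 on day 7 stayed within 1.5 times. All probes called also numbered 529 without the filter, 396 with the compared days alone and 5084 with array weights on day 2, and 1905 with the compared days alone, 10429 with array weights and 213 without cow 2 on day 7. Both days gave 0 without cow 1 (3287 and 6702 at an unadjusted p under 0.05, limma) and 0 with the file links (338 and 1775), and day 2 gave 0 without cow 2 (4188). On day 14 the 44 calls ranged from 0 to 811. The 163 calls of day 7 against day 2 ranged from 0 to 10134 (2166 without cow 3), and the 49 of day 14 against day 7 from 0 to 9388 (142 without cow 3), the highest with array weights and 0 without cow 1 or cow 2.

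Signs turned in 87 of 1407 values, 56 of them past the threshold in neither fit. With the file links the values that turned against day 0 were, for CD44, -0.83 on day 2 and -0.54 on day 7, and 1.78 for day 14 against day 7. ENG had -0.12 and -0.28 on days 2 and 14 (probe 1), and on days 2, 7 and 14 -0.15, -0.41 and -0.35 (probe 2), -0.29, -0.58 and -0.55 (probe 3), and -0.53, -0.38 and -0.53 (probe 4). THY1 had -0.21 and -0.03 on days 2 and 14 (probe 1) and -0.52, -0.24 and -0.34 (probe 2), and MCAM probe 1 -0.27 on day 2. NT5E had -1.81 on day 7 and 0.55 on day 14 (probe 1) and -0.57 and -2.32 on days 2 and 7 (probe 2). PDGFRB had, on days 7 and 14, -0.67 and -0.57, -0.23 and -0.48, and -0.2 and -0.57. SUSD2 probes 1 and 2 had 1.8 and 1.88 on day 2, and ABCG2 probe 2 -0.41 on day 14. P-glycoprotein probes 2 and 3 had -0.18 and -0.07, and prominin 1 -0.22, on day 7.

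Of 41 named changes of list genes, 0 passed with the file links, without cow 1 or without cow 2, and 17 passed with the compared days alone, 26 without the cow as a block, 32 without the day 2 array of cow 3, 33 without cow 3, 34 with normexp together with quantile normalization, 36 without the filter and 38 with quantile normalization. With the file links those that turned on day 2 were ABCG4 0.11, ABCA1 0.2, SPP1 -0.18, MSN -0.45, PDGFRL -0.35, PECAM1 -0.08, ACTG2 -0.65, PTPRC -0.34, CD68 -0.4 and ITGB2 -0.72. On day 7 they were ABCG4 0.15, ABCA1 0.27, ITGA1 -1.14, TGFB1 -0.17, PDGFD 0.03, PDGFRL -0.8, PECAM1 -0.03, VWF -0.09, TAGLN -0.38, KCNJ8 0.36, ABCC9 0.61, ACTG2 -0.59, PTPRC -0.22, CD68 -0.57 and ITGB2 -0.8.

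With array weights, NT5E had -1.25 and -0.89 on day 7, PDGFRB -0.42, -0.43 and -0.23 on day 14, and SUSD2 probes 1 and 2 0.11 and 0.05 on day 2. With normexp and quantile normalization, ABCG2 probe 2 had -0.01, NT5E probe 1 0 and PDGFRB probe 2 -0.07 on day 14, and PDGFRB probe 3 0.05 on day 2. Leaving out arrays, ABCG2 probe 2 ranged from -0.26 to 0.03, -0.26 to 0.23 and -0.16 to 0.2 on days 2, 7 and 14. NT5E ranged from -0.52 to 1.91 on day 7 and -1.0 to 1.05 on day 14 (probe 1) and from -1.04 to 1.36 on day 7 (probe 2). PDGFRB probe 1 ranged from -0.41 to 0.16 on day 2 and -0.22 to 0.37 on day 14. SUSD2 ranged from -0.3 to 0.76 and -0.37 to 0.72 on day 2 (probes 1 and 2) and from -2.16 to 0.23 on day 14 (probe 3), and prominin 1 from -0.25 to 0.55 on day 7. The alternatives for the list genes and for the probes found by description were added after the data had been seen. Changes between later days were set against the alternatives for CD44 and SUSD2 only.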
